A study of Mus musculus with 6 samples.

Results

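The miR-34 and miR-449 microRNAs were followed in 3 oviducts and 3 primary oviduct tumors of mice. They were taken by name from a table of raw counts: mmu-miR-34a-5p, mmu-miR-34b-5p, mmu-miR-34b-3p, mmu-miR-34c-5p, mmu-miR-34c-3p, mmu-miR-449a-5p and mmu-miR-449c-5p (the prefix mmu, for mouse, is left out below), which are 7 of its 1915 mouse names. The oviducts had the genotype Dicer1+/D1693N and the tumors the genotype Dicer1ko/D1693N. Both groups therefore carried the D1693N allele, and they differed in the second allele, which was normal in the oviducts and knocked out in the tumors. No treatment was given. What deleted the knocked-out allele, the age of the mice and whether samples within a group are separate animals are not stated in the sources used here. P-values therefore describe the spread among these 6 samples, and part of it may be technical. Tissue state and genotype changed together, and the column names carry a tag (s0 or s1) that separates the same groups, so these cannot be told apart. Fewer cells of a type and less RNA per cell cannot be told apart either in such bulk samples.

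MicroRNAs are cut from hairpin precursors by Dicer, whose RNase IIIa domain releases the 3p strand and whose RNase IIIb domain, the site of D1693N, releases the 5p strand. The miR-34b/c cluster and the miR-449 cluster are known from epithelia with multiciliated cells, among them the oviduct, where they take part in the building of motile cilia. The miR-34a gene is transcribed from its own locus in many tissues and is best known as a direct target of the tumor suppressor p53, which can also act on miR-34b/c. The 5p strands of these hairpins form 1 family because they share a seed, the stretch near the 5′ end that pairs with target messenger RNAs. Messenger RNA was not measured, so neither p53 targets nor genes of ciliated cells could be read beside these microRNAs.

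The mature sequences are given to show which members can act on the same targets, with the seed (bases 2 to 8) in capitals. RefSeq sequences on GRCm38.p6 were matched by name for 6 of the 7 members, and miR-34c-5p is named only. The 4 matched 5p members share the seed GGCAGUG, and no other matched mouse name has it.
miR-34a-5p: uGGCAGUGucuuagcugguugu
miR-34b-5p: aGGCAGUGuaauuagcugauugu
miR-449a-5p: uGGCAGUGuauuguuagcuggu
miR-449c-5p: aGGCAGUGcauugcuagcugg
The 3p strands have other seeds, and those of miR-34b and miR-34c share one that is not the seed of miR-34a-3p, a strand outside the 7 members that is used below.
miR-34b-3p: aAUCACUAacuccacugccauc
miR-34c-3p: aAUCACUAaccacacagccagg
miR-34a-3p: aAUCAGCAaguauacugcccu
Position by position from the 5′ end, miR-34b-3p and miR-34c-3p are alike at 17 of 22 bases, and miR-449a-5p and miR-449c-5p at 18 of 21. How the authors assigned reads that fit both members of such a pair is not stated in the sources used here.

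The 7 strands come from 3 loci (RefSeq hairpins on GRCm38.p6, genes from GENCODE M21 on GRCm38). The miR-34a hairpin lies on chromosome 4 from 150068454 to 150068555 on the plus strand, and it overlaps an exon of Gm37795, an uncharacterised transcript on the same strand. The hairpins of miR-34b (chromosome 9, 51103562 to 51103645) and miR-34c (chromosome 9, 51103034 to 51103110) lie on the minus strand with 451 bases between them, in an intron of Btg4 on the opposite strand. The hairpins of miR-449c (chromosome 13, 113035983 to 113036091) and miR-449a (chromosome 13, 113037534 to 113037624) lie on the plus strand in an intron of Cdc20b, a gene of multiciliated cells, in the same orientation.

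Depth was 297039 to 580390 mouse microRNA counts per oviduct library and 154002 to 272167 per tumor library. Levels below are CPM, the count divided by library size, scaled by the trimmed mean of M-values (TMM), and 3 counts correspond to between 5.48 and 15.1 CPM. All members are short strands of 21 to 23 bases where matched, so no correction for length was made. Ligation and amplification differ between sequences, however, and a level compares 2 strands less surely than 2 libraries. Of the 7 members 6 passed the low-count filter and were tested singly, and miR-449c-5p did not pass.

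In the oviducts miR-34c-5p was far above the rest of the family. Its level was 20043, 13882 and 12879 CPM in oviducts 1, 2 and 3, which made it the microRNA with the 7th, 10th and 11th highest count. The next were miR-34b-3p with 671 ± 93.3 CPM, miR-34b-5p with 364 ± 101.2 CPM and miR-34c-3p with 359 ± 61.1 CPM (SD, n = 3). Below them stood miR-449a-5p with 240.5 ± 95.4 CPM, miR-34a-5p with 63.5 ± 3.64 CPM and miR-449c-5p with 52.1 ± 16.6 CPM. The ranges of miR-34b-5p, miR-34c-3p and miR-449a-5p overlapped between libraries, as did those of miR-34a-5p and miR-449c-5p. Within each oviduct, however, miR-449a-5p was below both miR-34b-5p and miR-34c-3p. The order of miR-34b-5p and miR-34c-3p, and that of miR-34a-5p and miR-449c-5p, differed between oviducts.

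**Figure D1:**
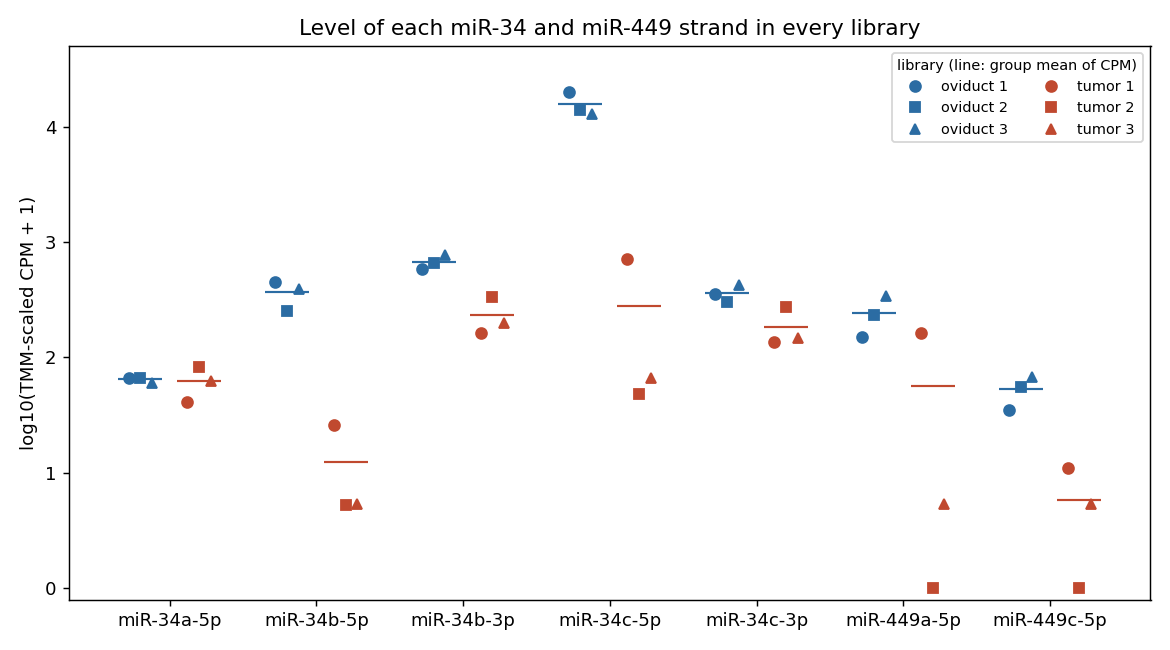
Each point is 1 library, with log10 of the TMM-scaled CPM plus 1 on the vertical axis, the 7 strands on the horizontal axis, oviducts in blue, tumors in red and a line at the mean CPM of each group. The oviduct points of miR-34c-5p lie between 12879 and 20043 CPM and all tumor points at or below 715 CPM, while the points of miR-34a-5p overlap between the groups.

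In TMM-scaled CPM the strands of the miR-34b/c cluster were lower in every tumor than in any oviduct. Among the 6 tested members these 4 strands had groups that did not overlap, beside 30.4% of all 227 tested names with every tumor below every oviduct. In the tumors miR-34c-5p had 715, 47.2 and 65.9 CPM, from 142, 11 and 15 counts. Tumor 1 was thus far above the other tumors and still below every oviduct. Its mean went from 15601 ± 3880 to 276 ± 380 CPM (SD, n = 3 each), and the fitted log2 change (tumor over oviduct) was -5.83 with a 95% interval from -8.10 to -3.56 (edgeR adjusted p = 0.00128). Without tumor 1 it was -8.35. With no low-count filter the call was lost (edgeR adjusted p = 0.0767, log2 -6.06).

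The other 5p strand of the cluster, miR-34b-5p, had 452, 254 and 387 CPM in the oviducts against 25.2, 4.29 and 4.396 CPM in the tumors. The tumor values came from 5, 1 and 1 counts, so the last ones lay under the level of 3 counts. It fell by 5.01 on the log2 scale (95% interval -6.58 to -3.45, edgeR adjusted p = 0.000315), with a change of -6.52 without tumor 1. The interval for counting error alone put the pooled oviduct level between 15.4 and 80.3 times the pooled tumor level.

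The 3p strands of the same hairpins differed far less between the groups. The level of miR-34b-3p was 586, 655 and 771 CPM in the oviducts against 161, 335 and 198 CPM in the tumors. It fell by 1.53 on the log2 scale, a 2.89-fold fall (95% interval -2.35 to -0.71, edgeR adjusted p = 0.00597). That call was lost when libraries were scaled by their totals alone (edgeR adjusted p = 0.138, log2 -1.06). The level of miR-34c-3p was 352, 301 and 423 CPM in the oviducts against 136, 270.5 and 145 CPM in the tumors. Its groups did not overlap at this scaling either, yet its log2 difference of -0.96 (95% interval -1.87 to -0.04) missed the threshold (edgeR adjusted p = 0.0705). Divided by library totals alone, its value in tumor 2 was above those of oviducts 1 and 2. Of the alternatives 6 called it, namely DESeq2 (adjusted p = 0.0354), scaling by RLE factors or by TMM factors from 3p names, a filter at 10 CPM on average, and leaving out tumor 1 or tumor 2. The other 9 did not, among them library totals alone (log2 -0.50, edgeR adjusted p = 0.535) and upper-quartile factors (log2 -0.84, edgeR adjusted p = 0.106).

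Of the miR-449 strands, miR-449a-5p was low in tumors 2 and 3 but not in tumor 1, and miR-449c-5p was low in all tumors. The level of miR-449a-5p was 149.7, 232 and 340.0 CPM in the oviducts, and 161, 0 and 4.396 CPM in the tumors, from 32, 0 and 1 counts. Tumor 1 therefore lay within the range of the oviducts, and tumors 2 and 3 lay under the level of 3 counts. The log2 difference was -2.15 with a 95% interval from -4.78 to 0.48, which missed the threshold (edgeR adjusted p = 0.147). Without tumor 1 miR-449a-5p was called at -6.78 (edgeR adjusted p = 0.000188), and with library totals alone at -2.23 (edgeR adjusted p = 0.0101). For miR-449c-5p the counts were 11, 30 and 17 in the oviducts against 2, 0 and 1 in the tumors. Its pooled CPM in the oviducts was 11.4 times that in the tumors, with a 95% interval for counting error of 3.70 to 56.7. No count was listed for miR-449b or for miR-449a-3p in any library.

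The p53-linked miR-34a-5p had levels that overlapped between the groups. Its level was 65.5, 65.7 and 59.3 CPM in the oviducts against 40.3, 81.6 and 61.5 CPM in the tumors, from 15 to 36 and 8 to 19 counts. Tumor 1 lay below the oviducts, tumor 2 above them and tumor 3 within their range. The log2 difference was -0.05 and was not called (edgeR adjusted p = 0.944), and its 95% interval from -1.08 to 0.98 leaves room for about a doubling or a halving. Its sign followed the scaling, with 0.06 under upper-quartile factors and 0.41 if only library totals were used. TMM factors from 3p names gave -0.94 (edgeR adjusted p = 0.122), and none of these was called.

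These values have to be read beside the strands of the same arm. In the whole table edgeR called 25.6% of 227 names lower and 26.9% higher in the tumors. It called 48.4% of 95 5p strands lower and 2.11% higher, and 10% of 110 3p strands lower and 41.8% higher. Among the members 3 of 6 tested were lower (miR-34b-5p, miR-34b-3p and miR-34c-5p), 0 were higher and 3 were not called, with a median log2 difference of -1.84 beside 0.20 for all tested names. For the 5p strands, 2 of 4 tested is close to the share among all 5p strands, and for the 3p strands the count is 1 of 2. Leaving out tumor 1 gave 6 lower members of 7 tested, and leaving out tumor 2 gave 5 of 7. In the same fits the names called in either direction were 142 of 262 and 124 of 244, beside 119 of 227 with all libraries.

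The sizes of the changes were also ranked within each arm. The median log2 change was -1.04 over the 95 5p strands and 0.89 over the 110 3p strands. The fall of miR-34c-5p was the largest of the 5p strands, and only 1 further strand lay between it and miR-34b-5p, which had the third largest. Relative to the 5p median they stood at -4.79 and -3.97. The value of miR-34a-5p was 0.99 above that median, and 71 of the 95 5p strands had a lower one. Among the 3p strands miR-34b-3p stood at -2.42 and miR-34c-3p at -1.85 relative to their median, as the 8th and the 15th lowest of 110.

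**Figure D2:**
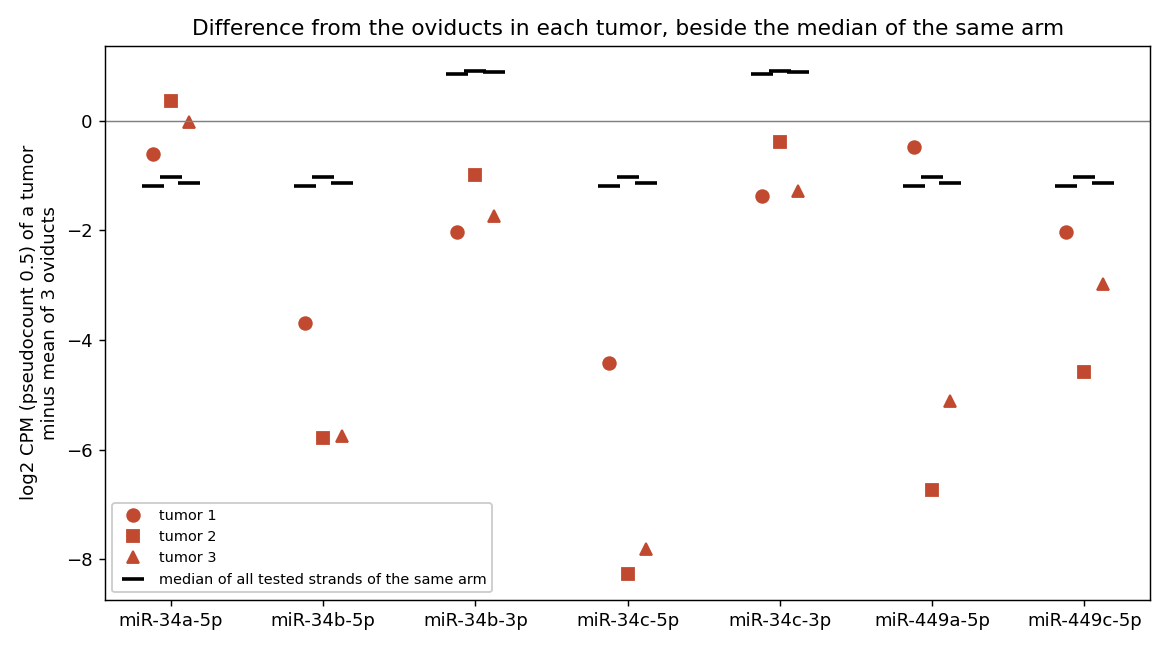
Each red point is the log2 CPM (pseudocount 0.5) of 1 tumor minus the mean of the 3 oviducts, for the 7 strands on the horizontal axis, and each black dash is the median of all tested strands of the same arm in that tumor. Points of miR-34c-5p lie at -4.41, -8.28 and -7.81 and those of miR-34a-5p at -0.60, 0.37 and -0.03, above the 5p dashes near -1.1.

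Tumor by tumor the members kept different orders. In tumor 1 the log2 difference from the oviduct mean was -4.41 for miR-34c-5p, -3.68 for miR-34b-5p and -0.49 for miR-449a-5p, while the 5p median was -1.19. In tumors 2 and 3 miR-34c-5p stood at -8.28 and -7.81, and miR-449a-5p at -6.74 and -5.12, where its counts were 0 and 1 and the value follows the pseudocount. The 3p strands went the other way, since miR-34b-3p was at -2.03 in tumor 1, -0.99 in tumor 2 and -1.74 in tumor 3. Tumor 1, where the ciliary 5p strands were highest, therefore had the lowest miR-34b-3p and miR-34c-3p (-1.37, beside -0.39 and -1.28). The summed level of 6 microRNAs of smooth muscle and fibroblasts, nearly all of it miR-143-3p, was 864078 CPM in tumor 1, 240923 and 138755 CPM in the other tumors and between 494848 and 561954 CPM in the oviducts. The other members of that list were divided. Tumor 1 was also the highest tumor for miR-143-5p (116 CPM, beside 30.1 and 22.0 CPM) and miR-145a-3p (342 CPM, beside 228 and 87.9 CPM). It was the lowest for miR-199a-3p (27505 CPM, beside 28933 and 42415 CPM), miR-214-3p and miR-145a-5p. The summed level of 10 epithelial microRNAs was 7277 CPM in tumor 1, 10592 and 10718 CPM in the other tumors and between 9621 and 14299.8 CPM in the oviducts. The part of these cell types in the result was not tested.

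The contrast between miR-34a-5p and the ciliary strands was then tested directly, as the ratio of each microRNA's count to that of miR-34a-5p in the same library, which needs no scaling. For each count of miR-34a-5p there were 306, 211 and 217 counts of miR-34c-5p in the oviducts against 17.8, 0.579 and 1.07 in the tumors. The log2 ratio fell by 6.75 (95% interval -9.39 to -4.10, limma adjusted p = 0.00262), with -8.21 without tumor 1 and -5.80 without tumor 2. For miR-34b-5p the ratio went from 6.90, 3.86 and 6.53 to 0.625, 0.0526 and 0.0714, with a log2 change of -4.99 (95% interval -6.83 to -3.14, limma adjusted p = 0.00203), or -5.94 without tumor 1 and -3.58 with a pseudocount of 5. For miR-34b-3p it went from 8.95, 9.97 and 13.0 to 4.00, 4.11 and 3.21, with a log2 change of -1.50 (95% interval -2.32 to -0.68, limma adjusted p = 0.0103). These 3 of 5 tested members were lower relative to miR-34a-5p, beside 18.6% of all 226 names lower and 23% higher.

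The other members missed the threshold in this contrast. The ratio of miR-34c-3p to miR-34a-5p was 5.38, 4.58 and 7.13 in the oviducts against 3.38, 3.32 and 2.36 in the tumors, a log2 difference of -0.92 (95% interval -1.78 to -0.07, limma adjusted p = 0.0762). That of miR-449a-5p was 2.29, 3.53 and 5.73 in the oviducts against 4.00, 0 and 0.0714 in the tumors, a log2 difference of -4.03 (95% interval -7.80 to -0.25, limma adjusted p = 0.0776). Without tumor 1 it was called at -6.10. With a pseudocount of 5, or with the summed miR-34a hairpin as the reference, all 5 were called. Each of these settings also raised the calls in either direction over all 226 names, from 94 to 118. The exact permutation test of a single ratio cannot go below p = 0.1 with 3 samples against 3. It gave that value for each of these ratios except that of miR-449a-5p (exact p = 0.3).

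The balance of the strands moved from 5p towards 3p, in the ciliary miR-34b and miR-34c and in miR-34a alike. In miR-34c the 5p strand took 98.3%, 97.9% and 96.8% of the counts in the oviducts against 84.0%, 14.9% and 31.3% in the tumors. The log2 ratio of 5p to 3p counts fell by 5.82 (95% interval -8.16 to -3.48, limma adjusted p = 0.00103), with -7.21 without tumor 1 and -4.79 without tumor 2. In miR-34b the 3p strand was already the more abundant, the 5p share being 43.5%, 27.9% and 33.4% in the oviducts against 13.5%, 1.27% and 2.17% in the tumors. Its log2 ratio fell by 3.49 (95% interval -5.30 to -1.68, limma adjusted p = 0.00502), with -4.41 without tumor 1 and -2.83 without tumor 2. In both hairpins all tumors lay below all oviducts, and tumor 1 kept the highest 5p share among the tumors. How many of all hairpins had such a separation was not counted. Over the 142 tested hairpins the median change of this log2 ratio was -1.53. Larger falls than that of miR-34c were seen in 11 of them, than that of miR-34a in 23 and than that of miR-34b in 31.

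In miR-34a the 3p strand was counted in tumors only. In the oviducts it had 0 counts beside 21, 36 and 15 counts of the 5p strand. In the tumors it had 4, 4 and 7 counts beside 8, 19 and 14. The 5p share was thus 66.7%, 82.6% and 66.7% in the tumors (exact 95% intervals 34.9 to 90.1, 61.2 to 95.05 and 43.0 to 85.4), while the oviducts had no 3p count at all. The oviducts' pooled odds of 5p against 3p were at least 5.82 times those of the tumors (lower end of Fisher's exact 95% interval, counting error only). The pooled tumor level of miR-34a-3p was 8.51 times a floor set at 3 counts over the oviducts. The 95% interval for counting error put its pooled oviduct level at no more than 0.164 times the pooled tumor level. The fitted log2 change of -4.20 (limma adjusted p = 0.000348) depends on the pseudocount of 0.5, being -6.42 with 0.1 and -1.60 with 5, and was called with each. The test also called the ratio of miR-449a, but that hairpin had no 3p count in any library, so its value follows the 5p count alone and says nothing of its strands. With it, 4 of 4 tested hairpins were lower, beside 47.2% of 142 hairpins lower and 4.23% higher.

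**Figure D3:**
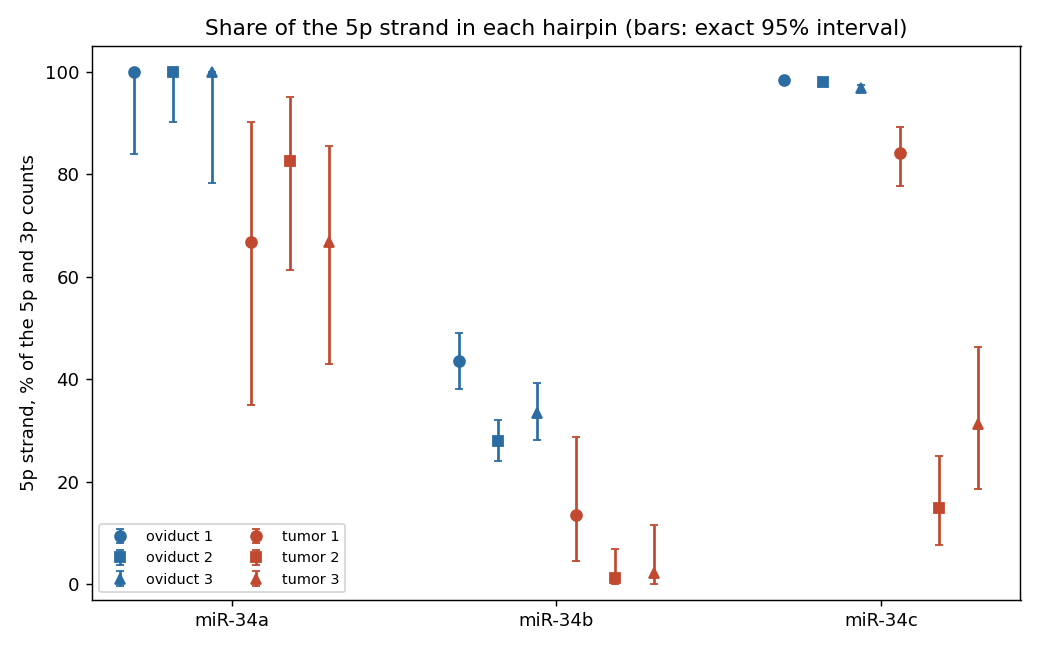
The vertical axis gives the 5p strand as a percentage of the 5p and 3p counts of a hairpin, each point is 1 library with its exact 95% interval, and oviducts are blue and tumors red. The miR-34c points fall from 96.8% or more in the oviducts to between 14.9% and 84.0% in the tumors, and the miR-34a points from 100% to between 66.7% and 82.6%.

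Summing both strands gave a level for the whole hairpin. The miR-34c hairpin had 19307, 13064 and 13160.4 CPM in the oviducts against 971, 348 and 220.2 CPM in the tumors. This was the largest of the falls among 161 hairpins (log2 -4.89, 95% interval -6.29 to -3.50, edgeR adjusted p = 0.000679, or -5.81 without tumor 1), in a hairpin whose oviduct counts were nearly all 5p. The miR-34b hairpin, where the 3p strand led, went from 989 ± 154 to 265 ± 92.2 CPM (log2 -1.89, 95% interval -2.62 to -1.17, edgeR adjusted p = 0.0025). The miR-34a hairpin had 62.0, 60.5 and 58.7 CPM in the oviducts against 69.0, 108 and 96.4 CPM in the tumors. With TMM scaling every tumor was above every oviduct, from 12, 23 and 21 counts in tumors 1, 2 and 3. Divided by library totals alone, tumor 1 was below every oviduct. How many of the 161 hairpins separated in this way was not counted. The log2 difference of 0.60 (95% interval -0.30 to 1.49) was not called (edgeR adjusted p = 0.235). The miR-449a hairpin was not called either (log2 -1.92, edgeR adjusted p = 0.223), and without tumor 1 it was (log2 -6.44, edgeR adjusted p = 0.000766). In all 2 of 4 tested hairpins were lower, beside 18% of 161 hairpins lower and 22.4% higher, and without tumor 1 there were 4 of 5. Leaving that tumor out took the hairpins called in either direction from 65 of 161 to 82 of 178.

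The ratios of miR-34b to miR-34c strands differed in opposite directions for the 3p and the 5p arm. For each count of miR-34c-3p there were 1.66, 2.18 and 1.82 counts of miR-34b-3p in the oviducts against 1.19, 1.24 and 1.36 in the tumors. For each count of miR-34b-5p there were 44.3, 54.7 and 33.2 counts of miR-34c-5p in the oviducts against 28.4, 11 and 15 in the tumors, the last from 1 count of miR-34b-5p each. The 3p ratio was thus nearer to miR-34c in the tumors and the 5p ratio nearer to miR-34b. The exact permutation p was 0.1 for each, the smallest that 3 samples against 3 allow. This test could therefore not pass the threshold and does not decide whether either ratio differed.

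The make-up of the family's 5p strands changed with these falls. The 5 strands together took 1.77%, 1.37% and 1.17% of the mouse counts in the oviducts against 0.0694%, 0.0176% and 0.0208% in the tumors, where they had 189, 31 and 32 counts. In the oviducts miR-34c-5p was between 93.8% and 96.6% of the family and miR-34a-5p between 0.316% and 0.454%. In tumor 1 miR-34c-5p was 75.1% (exact 95% interval 68.3 to 81.1), miR-449a-5p 16.9% (11.9 to 23.1) and miR-34a-5p 4.23% (1.84 to 8.17). In tumor 2 miR-34a-5p was 61.3% (42.2 to 78.2), and in tumor 3 it was 43.8% (26.4 to 62.3). The intervals of miR-34a-5p and miR-34c-5p overlapped in tumors 2 and 3, so which of them led there was not detectable at this depth. These are shares of a much smaller total, and the level of miR-34a-5p itself overlapped between the groups.

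**Figure D4:**
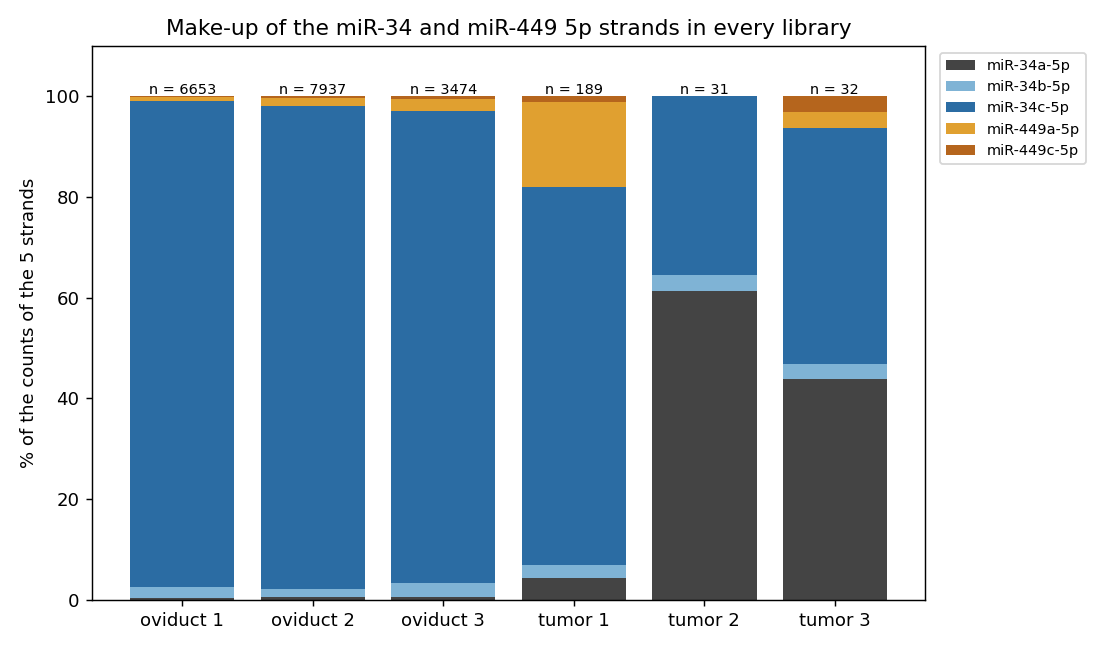
Each bar is 1 library and shows the percentage of the summed counts of the 5 family 5p strands that each strand took, with the summed count above the bar. The share of miR-34a-5p is at most 0.454% in the oviducts against 4.23%, 61.3% and 43.8% in the 3 tumors, whose bars rest on 189, 31 and 32 counts.

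Other microRNAs were ranked by how near their profile came, as the root mean square difference over the 6 libraries of log2 CPM relative to the oviduct mean, among 221 names outside the family. Nearest to miR-34c-5p were miR-375-3p, a microRNA of endocrine cells (1.19), miR-411-5p of the imprinted Dlk1-Dio3 region (1.48) and miR-92b-3p (1.52). The first of these had 131, 8.59 and 35.2 CPM in the tumors beside 1241 to 1737 CPM in the oviducts, with tumor 1 again the highest tumor. Nearest to miR-34a-5p were miR-140-3p (0.22), miR-106b-5p (0.24) and miR-574-5p (0.27), all with overlapping groups. These distances describe 6 libraries that fall into 2 groups.

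Lists of other microRNAs give the setting of miR-34a. Of 9 other microRNAs linked to p53, by transcription or by processing, 8 were tested, of which miR-145a-5p and miR-200c-3p were lower, 0 were higher and 6 were not called, with a median log2 difference of -0.29. Shares of 25.6% lower and 26.9% higher over all 227 names are the background of this and the next lists, and 2 of 8 is close to the former. The most abundant of the list were miR-143-3p and miR-16-5p, the latter with 3283 to 4662 CPM in the oviducts against 3570.3, 10579 and 5025 CPM in the tumors. Of 10 epithelial microRNAs, 9 were tested, of which miR-200c-3p was lower, miR-203-3p was higher and 7 were not called, with a median of -0.69. The most abundant were miR-141-3p, with 2135 to 6904 CPM in the oviducts and 1531 to 3190 CPM in the tumors, and miR-182-5p, with 1756 to 2591 and 2850.2 to 3187 CPM. The 9 tested epithelial microRNAs had counts in every tumor, while the untested name had 0 CPM in tumor 1. Of the 3p strands named here, miR-141-3p had a log2 difference of -0.92, miR-200c-3p of -1.03 and miR-203-3p of 1.39. For comparison, miR-34c-3p had -0.96 and the median of all tested 3p strands was 0.89. Both endothelial strands, of miR-126a, were higher, and of 6 leukocyte microRNAs 0 were called (median 1.02). Of 6 of smooth muscle and fibroblasts both strands of miR-145a were lower, and miR-199a-3p and miR-214-3p were higher.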

How the data were processed

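Small RNA libraries of 3 oviducts and 3 tumors were used, of 5 and 4 that the series text names. RNA came from a miRNeasy kit and libraries from an Illumina TruSeq kit, per the labels' protocols. The submitters' processing notes name cutadapt, an adapter trimmer. The deposited values are raw counts per microRNA name, taken by the authors from BAM files of trimmed reads, per the file headers. The aligner, counter, microRNA reference and build are not stated in the sources used here. The 67 names of other species, with 10 counts, were left out.

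Single names and hairpin sums were tested with edgeR 4.0.16 (R 4.3.3; robust quasi-likelihood test, TMM factors, filterByExpr with a minimum count of 10). Ratios, with 0.5 added to each count, were tested with limma 3.58.1, hairpins at a mean of 20 counts or more. Adjusted p-values are Benjamini-Hochberg values over the whole table, two-sided, with a threshold of 0.05. Shares carry exact Clopper-Pearson 95% intervals, which cover counting error only, because PCR reads were counted without molecular identifiers. Log2 intervals are 95% intervals, which for limma come from the fit. For edgeR they were worked out from the log2 change and its test statistic, and are approximate. Sequences came from RefSeq (GRCm38.p6) with Python 3.11.15, and figures were drawn with matplotlib 3.10.9.

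Members and lists were chosen with earlier results of these data known. Named microRNAs were the members, the other strands of their hairpins, names with the shared seed, the 3 nearest profiles and at most 2 abundant members of each list, and called list members were named after their values were seen. The tests were checked on simulated counts, with 20 changed names or hairpins for each size of change. For a true 8-fold change single names gave 20 calls, ratios to miR-34a-5p 12, strand ratios 15 and hairpin sums 20. For a true 2-fold change the calls were 6, 0, 1 and 10 in the same order. A change of that size can therefore miss the threshold.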

Additional observations from a re-analysis of the deposited data

How the results depend on the processing

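Tested singly, miR-34b-5p was called lower under every alternative run. With TMM on 3p names its log2 change was -5.86, that of miR-34c-5p -6.67 and that of miR-34b-3p -2.38. Among single names the count of lower members was 3, and 5 with a filter at 10 CPM on average. Leaving out 1 library gave between 3 and 6. For hairpin sums that count was 2, and between 2 and 4 with 1 library left out. Relative to miR-34a-5p it was 3, and 5 with a pseudocount of 5 and 5 with the miR-34a hairpin sum as the reference. The sign of miR-34a-5p was turned under upper-quartile factors (log2 0.065) and library totals (0.41), and neither was called. The median log2 change of all names was 0.20 with TMM, 0.65 with library totals and -0.73 with TMM on 3p names, so levels are relative to the scaling, while ratios within a library are not. Of the family, the miR-34b hairpin took 32.9% of the counts in the tumors when both strands were summed, beside 3.00% for miR-34b-5p among 5p strands. The ratio of miR-449a lost its call with a pseudocount of 0.1 and in an edgeR interaction of arm and group, and without oviduct 2 the miR-34a hairpin had too few counts for the ratio. Same-numbered samples of the groups correlated at -0.06, 0.07 and -0.13. These values gave no sign of pairing by number, but so few samples cannot exclude it. With the replicate number as a block, the lower members were 3 of single names, 2 of hairpin sums, 4 of strand ratios and 3 of ratios to miR-34a-5p. These counts were the same without the block, and with it the log2 change of miR-34c-5p was -6.77. Tumor counts of 8 to 19 limit miR-34a-5p, and counts of 0 to 5 limit miR-34b-5p, miR-449c-5p and, outside tumor 1, miR-449a-5p.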
